A study of Mus musculus with 24 samples.

Results

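Detached and attached cells of the ID8 p53-/- line, a mouse ovarian surface epithelial cancer line from which p53 was removed, were compared while both were exposed to interferon-gamma (IFN-gamma). The comparison takes the 3 libraries of sgNTC cells kept in ultra-low attachment (ULA) plates with IFN-gamma and the 3 libraries of adherent sgNTC cells with IFN-gamma, 6 of the 24 libraries of the series, chosen by their labels for line, culture and treatment. The sgNTC line carries a non-targeting guide RNA, so it serves as the control of a line edited at Ifngr1. The other groups used, 3 libraries each, served to ask where the effect of detachment differed, namely ULA and adherent sgNTC cells given PBS, the vehicle, and ULA and adherent Ifngr1-KO cells given IFN-gamma. Every group was p53-/- and was harvested 48 hours after seeding. The agent, 100 ng/ml of IFN-gamma or the PBS vehicle, was present for 24 hours before harvest. Each genotype is represented by 1 line. Dead cells were removed before RNA extraction from the ULA wells and not from the adherent wells, so detachment and this handling step cannot be told apart. The labels number biological replicates 1 to 3 in each group without saying whether they came from separate passages or days, so p-values measure the spread between these samples.

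IFN-gamma binds a receptor of IFNGR1 and IFNGR2 chains, whose kinases JAK1 and JAK2 activate transcription factors that bind gamma-activated sites. Among the genes induced is that of IRF1, which in turn drives genes for antigen presentation, the guanylate-binding proteins and the immunity-related GTPases. Type I interferons use another receptor and a complex containing STAT2 and IRF9 that binds interferon-stimulated response elements, and many genes answer to both pathways. Epithelial cells that lose their matrix lose integrin signals as well and can die by anoikis. Ovarian cancer cells that float in ascites survive that loss, and ULA plates are used to imitate it.

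Values are CPM, read counts scaled to library size and adjusted with TMM factors, and log2 fold changes are ULA over adherent with their standard error (SE). A gene is said to rise or fall where edgeR's quasi-likelihood test, fitted to all 24 libraries, gave a Benjamini-Hochberg adjusted p under 0.05. The ULA libraries held 37063763 to 40008342 counts and the adherent libraries 34716606 to 45141455. Among sgNTC libraries the first principal component, which took 69.74% of the variance, separated the cultures, and the second took 4.58%. Mitochondrially encoded genes took 5.46%, 6.12% and 5.75% of counts in the ULA libraries and 2.49%, 2.94% and 2.79% in the adherent libraries, a difference of means of 3.04 percentage points (exact permutation test, two-sided p = 0.1, the smallest that 3 against 3 allows). The part of this share in the results below was not tested. Ifngr1 had 35.5, 34.0 and 35.7 CPM in ULA sgNTC cells with IFN-gamma and 44.4, 48.1 and 44.5 CPM in adherent ones, above the 13.3 to 14.4 CPM of ULA and the 14.2 to 17.0 CPM of adherent Ifngr1-KO cells. The Cas9 transgene averaged 1737 CPM in ULA and 1108 CPM in adherent sgNTC cells, against 96.6 and 75.0 CPM in ULA and adherent Ifngr1-KO cells, so the lines also differ in that transgene. The cells expressed the mesothelial and epithelial genes Wt1, Msln, Krt8, Krt18 and Krt19, while Krt7, Cdh1, Epcam and Pax8 were near or at 0. Summed markers ran from 16.4 to 18.4 CPM in ULA and 12.5 to 13.9 CPM in adherent libraries for macrophages, with Adgre1, Itgam and Tyrobp at 0 in all 6. Lymphocyte markers summed to 0.0990 to 0.651 CPM in ULA and 0.137 to 0.451 CPM in adherent libraries, with Cd3e, Klrb1c and Nkg7 at 0, and erythroid markers to 0.396 to 0.615 CPM and 0.541 to 0.887 CPM, with all 4 globin genes at 0. Endothelial markers summed to 24.2 to 26.9 CPM in ULA and 5.68 to 7.58 CPM in adherent libraries with Emcn and Kdr at 0, and fibroblast and pericyte markers to 90.6 to 100.6 CPM and 43.1 to 62.3 CPM with Acta2, Lum and Pdgfrb at 0. Of the tested markers, 2 of 4 for macrophages and 2 of 3 for endothelium rose by more than 2-fold, and 1 macrophage marker fell. Among fibroblast and pericyte markers 1 of 3 rose, and the 1 lymphocyte and 1 erythroid marker tested did not pass. Over all genes tested 32.6% rose, 14.3% rose by more than 2-fold and 32.0% fell. The part of these markers in the results was not tested. In bulk RNA, fewer cells with a transcript and less of it per cell cannot be told apart.

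Detachment under IFN-gamma changed most measured genes. Of 14622 genes tested, 4773 rose (32.6%) and 4674 fell (32.0%). Among these 2089 rose by more than 2-fold (14.3%) and 1164 fell by more than 2-fold (7.96%), and the 3 ULA libraries did not overlap the 3 adherent ones in 10085 genes (69.0%). The median log2 fold change over all genes was 0.05. Scaled by library totals alone the median was 0.16 and the split was 5583 genes higher and 3851 lower. Counts for gene lists are read against these shares.

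The genes with the largest rises were taken among those with at least 5 CPM in 1 of the groups and no overlap between the cultures. Pnliprp1, a pancreatic lipase-related protein, had 577, 634 and 331 counts in the ULA libraries and none in the 3 adherent libraries, at least 477-fold higher against a floor of 3 counts over the adherent group. Hp, the haemoglobin-binding acute-phase protein haptoglobin, had 245, 258 and 248 CPM in ULA cells against 3.71, 3.93 and 4.36 CPM in adherent cells. Aox3, an aldehyde oxidase, had 816, 771 and 700 CPM in ULA cells against 21.1, 19.6 and 20.9 CPM in adherent cells. The ULA level was higher by 5.97 ± 0.17 for Hp (adjusted p = 2.61e-17) and 5.21 ± 0.17 for Aox3 (adjusted p = 3.91e-15) on the log2 scale. The next were Mmp15, a membrane-bound metalloproteinase (4.81), C4b, complement component 4 (4.72), Enpp2, the lysophosphatidic acid-producing enzyme autotaxin (4.57), and the mucins Muc5b (4.54) and Muc4 (4.44), as log2 fold changes. Txnip (5.64) and Ifitm1 (4.41) belong to lists described below.

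The genes with the deepest falls were taken by the same rule. Fgf21, a hormone made by stressed and fasted tissues, had 0.371, 0.307 and 0.940 CPM in ULA cells against 46.6, 39.6 and 46.7 CPM in adherent cells (log2 fold change -6.34 ± 0.25, adjusted p = 3.45e-16). Derl3, which helps export misfolded proteins from the endoplasmic reticulum (ER), had 0.173, 0.743 and 0.482 CPM in ULA cells against 34.2, 28.8 and 32.7 CPM in adherent cells (-6.10 ± 0.32, adjusted p = 1.9e-14). Bcat1, the cytosolic branched-chain aminotransferase, had 1.34, 1.72 and 1.49 CPM in ULA cells against 62.7, 69.6 and 66.4 CPM in adherent cells (-5.45 ± 0.13, adjusted p = 4.8e-28). The absence of overlap in these genes was part of the rule. Also among the 10 deepest were Car6, a secreted carbonic anhydrase (-5.73), the meiotic gene Mei4 (-5.37), Sspo, which encodes SCO-spondin (-5.30), Cth, which makes cysteine from cystathionine (-5.27), Pycr1, the last enzyme of proline synthesis (-5.11), Sh2d6 (-5.08), and Chac1, which degrades glutathione (-5.02).

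**Figure D1:**
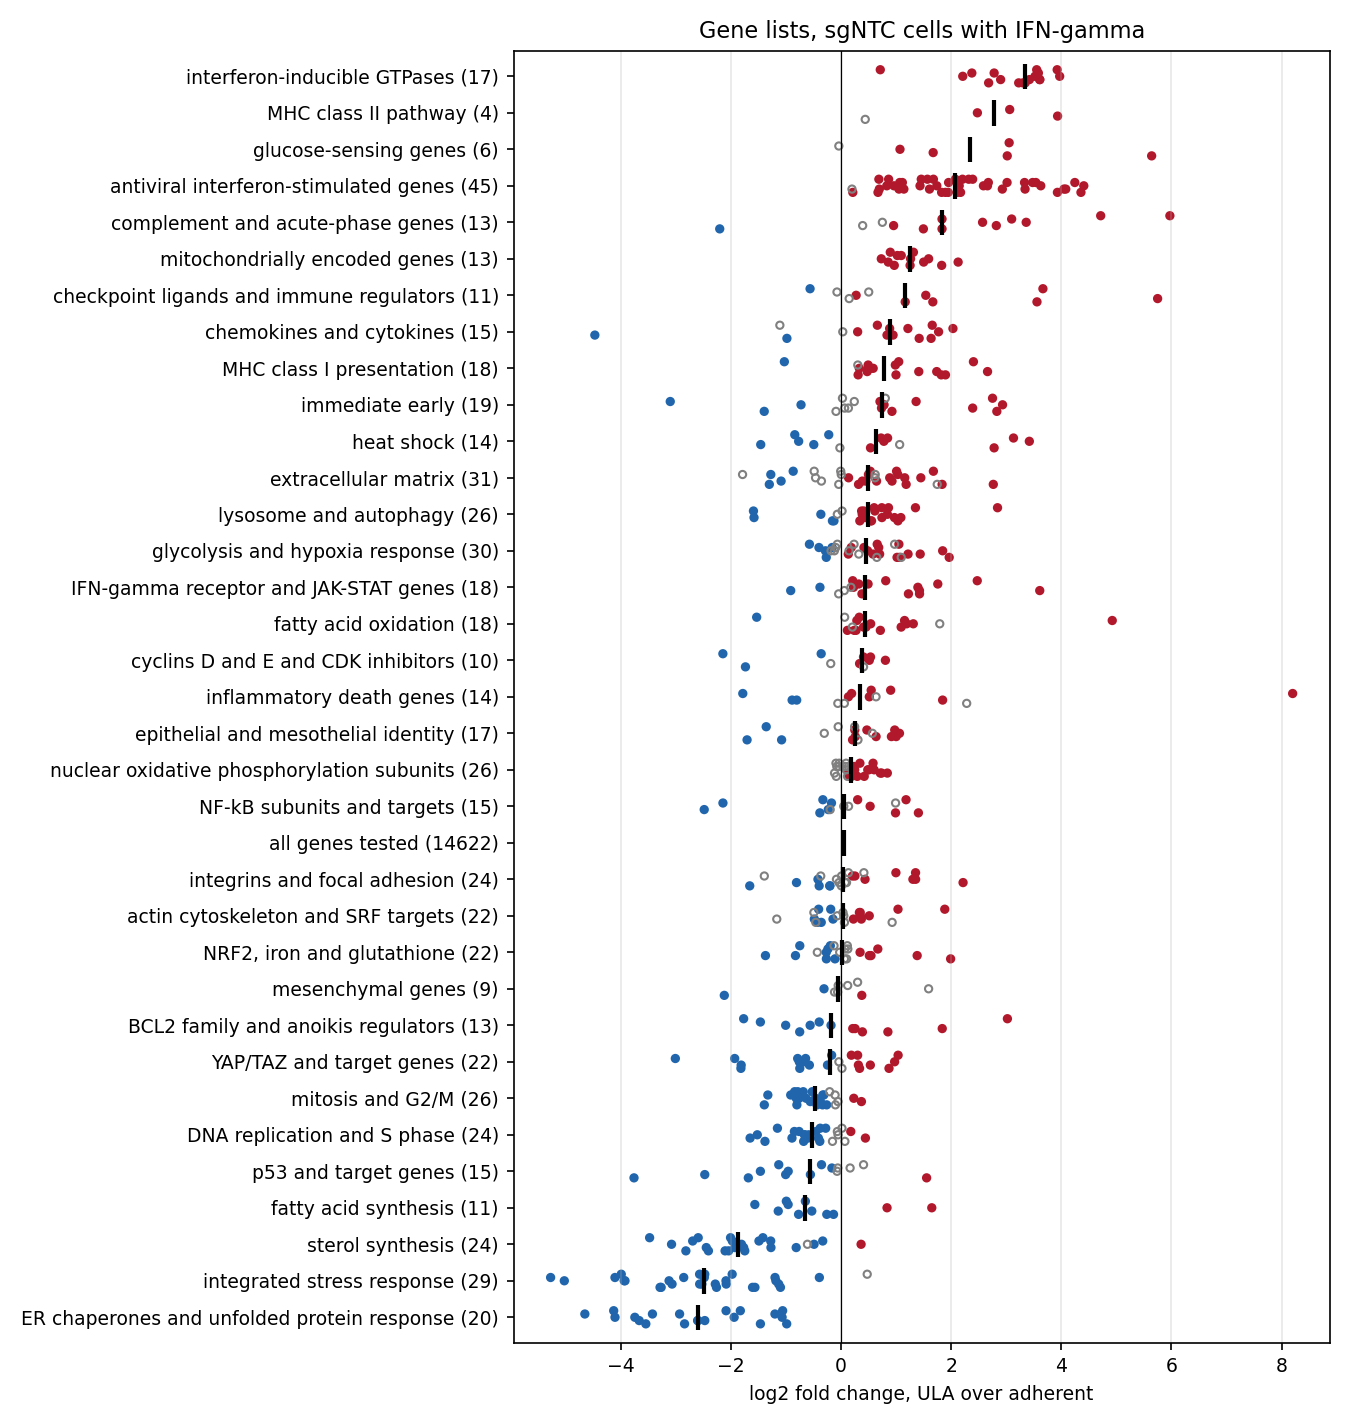
Log2 fold change of ULA over adherent sgNTC cells, both with IFN-gamma (x axis), for each tested member of 34 gene lists (y axis, number tested in parentheses), with n = 3 libraries per group. Filled red points passed the test as higher in ULA cells, filled blue points as lower, open grey points did not pass, and black bars are list medians; for all 14622 genes only the median of 0.05 is drawn. The GTPase list sits at the top with a median of 3.35 and the ER chaperone list at the bottom with -2.60.

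Interferon-regulated genes were higher in detached than in attached cells although both groups had received the same dose of IFN-gamma. Over 5 lists (receptor and JAK-STAT genes, interferon-inducible GTPases, MHC class I, MHC class II and antiviral genes) 102 members were tested, of which 93 rose, 3 fell (Ifngr1, Ptpn2 and H2-M3) and 6 did not pass, with a median log2 fold change of 1.82. Per kilobase of transcript, the highest levels in ULA cells were those of B2m (606 CPM per kb in ULA and 303 in adherent cells), Tapbp (170 and 63.7), Ifitm3 (110 and 22.1), H2-D1 (90.9 and 60.6) and H2-T23 (61.1 and 18.3).

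The receptor and signalling list moved unevenly, with 13 of 18 tested members higher, 2 lower and a median of 0.44. Ifngr1, the ligand-binding chain, fell by 0.38 ± 0.08 on the log2 scale (adjusted p = 7.52e-05). Ifngr2, the second chain, had 68.1, 72.3 and 68.0 CPM in ULA cells against 53.6, 60.7 and 52.2 CPM in adherent cells (0.32 ± 0.07, adjusted p = 7.18e-05). The kinase genes Jak1 (0.49) and Jak2 (0.21) rose, as did Tyk2 (0.23), which lost its call without ULA replicate 1 (0.17, adjusted p = 0.0839). Ifnar1 and Ifnar2, the type I interferon receptor chains, had log2 fold changes of -0.04 and 0.06 and did not pass.

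Several transcription factors of the pathway rose. Stat2 had 119, 95.5 and 127 CPM in ULA cells against 48.9, 38.1 and 39.8 CPM in adherent cells (1.43 ± 0.10, adjusted p = 1.22e-13). Irf1 had 152, 102 and 139 CPM in ULA cells against 80.9, 68.8 and 73.9 CPM in adherent cells (0.81 ± 0.09, adjusted p = 6.12e-09). The cultures did not overlap in either gene, and ULA replicate 2 was the lowest of its group in both. Irf7, an amplifier of the type I response, had 36.6, 28.6 and 41.7 CPM in ULA cells against 3.00, 2.77 and 2.98 CPM in adherent cells (3.61 ± 0.21, adjusted p = 1.85e-15). Irf9 (1.40), Irf2 (1.22) and Stat3 (1.42) rose as well. Of the brakes on the pathway, Socs3 rose (1.76), the phosphatase gene Ptpn2 fell (-0.91), Pias1 rose (0.38), and Socs1 was under 1.2 CPM in each library and did not pass.

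The interferon-inducible GTPases, which attack the vacuoles of intracellular pathogens, showed the highest median of any list, 3.35, with all 17 tested members higher. Irgm1 had 308, 203 and 348 CPM in ULA cells against 65.0, 48.6 and 51.5 CPM in adherent cells (2.38 ± 0.15, adjusted p = 1.15e-10). Gbp2 had 144, 67.2 and 158 CPM in ULA cells against 25.4, 12.1 and 11.6 CPM in adherent cells (2.90 ± 0.29, adjusted p = 9.95e-08). Iigp1 had 87.2, 17.7 and 123 CPM in ULA cells against 9.44, 1.68 and 3.01 CPM in adherent cells (3.97 ± 0.69, adjusted p = 0.000206). Each ULA library exceeded each adherent one for all 3, but within the ULA group replicate 2 lay well below the other libraries. Within the adherent group replicate 1 was the highest for all 3. Without adherent replicate 1 the list median was 3.65, with 16 of 17 members higher. The members with the smallest adjusted p were Gbp9 (3.58), Ifi47 (3.23), Gbp7 (3.61) and Gbp3 (3.52). Gvin1 had the smallest fold (0.71) and lost its call when adherent replicate 1, 2 or 3 or ULA replicate 1 or 3 was left out (log2 fold changes of 0.54 to 0.77, adjusted p of 0.0722 to 0.194). Reads shared by near-identical copies were not counted, so values for Tgtp1 and Tgtp2, the Gbp family and other close paralogs are less certain.

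Promoters were searched for the elements that interferon-activated factors bind. RefSeq promoters (GRCm38.p6, from 250 bases before to 50 after the annotated start) were found for 10 of the 17 tested GTPase genes, and a gene was counted where any of its promoters held a match. Of the 10 genes 9 (90%) held GAAA, any 2 bases, GAAA on either strand, the core of the interferon-stimulated response element, against 3.99% of all 27025 genes with a promoter. The share was 47.2% in antiviral genes (17 of 36), 35.7% in MHC class I genes (5 of 14) and 18.8% in receptor and JAK-STAT genes (3 of 16). TTC, any 3 bases, GAA, the core of the gamma-activated site, stood at 6 of 10 GTPase genes (60%), 5 of 16 receptor and JAK-STAT genes (31.2%) and 9 of 36 antiviral genes (25%), against 9.55% of all genes. A match is a description of letters in the window and not a binding site. The promoters of Irgm1 (chr11:48871371-48871670, minus strand) and Irf1 (chr11:53769764-53770063, plus strand) are printed because these genes are followed through the comparisons below. Irf1 has 2 RefSeq promoters, and the one not printed held no match of the second motif. Capitals mark 2 overlapping matches of the first motif in Irgm1 and a match of the second in Irf1.
Irgm1: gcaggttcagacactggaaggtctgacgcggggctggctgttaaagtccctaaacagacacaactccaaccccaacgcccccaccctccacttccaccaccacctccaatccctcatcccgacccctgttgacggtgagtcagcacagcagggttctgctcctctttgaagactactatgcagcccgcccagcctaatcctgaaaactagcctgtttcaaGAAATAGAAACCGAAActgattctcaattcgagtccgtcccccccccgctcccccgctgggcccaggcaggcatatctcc
Irf1: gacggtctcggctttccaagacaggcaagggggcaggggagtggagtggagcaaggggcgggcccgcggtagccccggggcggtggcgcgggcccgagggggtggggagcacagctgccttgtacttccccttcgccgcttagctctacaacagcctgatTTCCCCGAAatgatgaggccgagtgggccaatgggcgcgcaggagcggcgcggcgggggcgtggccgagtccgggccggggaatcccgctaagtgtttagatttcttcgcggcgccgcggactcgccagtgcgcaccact

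Genes of MHC class I presentation rose in 16 of 18 tested members with a median of 0.79. The peptide transporter gene Tap1 had 65.2, 38.8 and 75.3 CPM in ULA cells against 16.9, 8.75 and 7.88 CPM in adherent cells (2.41 ± 0.29, adjusted p = 7.47e-07), and Tap2, its partner, rose by 1.90. Tapbp, which encodes the loading chaperone tapasin, had 599, 501 and 578 CPM in ULA cells against 226, 200 and 205 CPM in adherent cells (1.41 ± 0.06, adjusted p = 1.17e-20). B2m, the light chain of every class I molecule, had 465, 467 and 633 CPM in ULA cells against 282, 254 and 246 CPM in adherent cells (1.00 ± 0.11, adjusted p = 1.56e-07). The ULA values exceeded the adherent ones throughout. The classical heavy chains moved less, by 0.58 for H2-D1 and by 0.49 for H2-K1, whose ULA values of 57.2, 41.1 and 72.7 CPM overlapped the adherent values of 45.7, 37.4 and 38.3 CPM. The call for H2-K1 was lost without ULA replicate 3 (0.28, adjusted p = 0.056). The non-classical H2-T23 rose by 1.74, H2-M3 fell (-1.03), and the immunoproteasome genes Psmb9 (2.66) and Psmb10 (1.05) rose. Nlrc5, the transactivator of class I genes, had 9.83, 5.10 and 11.9 CPM in ULA cells against 5.66, 3.85 and 3.97 CPM in adherent cells (0.99 ± 0.33, adjusted p = 0.011), with overlapping groups and no call without ULA replicate 3 (0.73, adjusted p = 0.107).

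Of 4 tested MHC class II genes 3 rose. Ciita, the master regulator of class II genes, had 6.12, 2.84 and 8.05 CPM in ULA cells against 0.478, 0.285 and 0.331 CPM in adherent cells (3.93 ± 0.50, adjusted p = 2.15e-08), with no overlap. H2-DMb1 (3.06) and H2-DMa (2.48), which load peptides onto class II molecules, rose too. Cd74, the invariant chain, had 14.6, 4.10 and 18.9 CPM in ULA cells against 9.94, 8.44 and 9.32 CPM in adherent cells (0.44 ± 0.36, adjusted p = 0.301). ULA replicates 1 and 3 lay above the adherent libraries and replicate 2 below them, and without replicate 2 the log2 fold change was 0.85 (adjusted p = 0.00161). The class II chain genes were left out by the filter on low counts, at 68, 4 and 81 counts in ULA libraries and 6, 0 and 0 in adherent ones for H2-Aa, and 45, 8 and 47 against 0, 0 and 0 for H2-Ab1, so that among ULA libraries replicate 2 alone lay below the filter's minimum count of 10.

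The antiviral genes rose in 44 of 45 tested members with a median of 2.08; Isg20 did not pass (0.20). Oas2, which makes the activator of RNase L, had 63.9, 60.3 and 75.5 CPM in ULA cells against 3.41, 3.08 and 3.22 CPM in adherent cells (4.36 ± 0.17, adjusted p = 1.07e-19). Ifitm1, a restriction factor of virus entry, had 21.6, 22.5 and 21.1 CPM in ULA cells against 0.614, 1.14 and 1.38 CPM in adherent cells (4.41 ± 0.22, adjusted p = 2.18e-18). Ifit2, which binds viral RNA, had 15.7, 19.5 and 25.6 CPM in ULA cells against 5.12, 4.19 and 5.08 CPM in adherent cells (2.08 ± 0.17, adjusted p = 6.47e-13). These genes did not overlap between the cultures, and for Ifitm1 and Ifit2 ULA replicate 2 was not the lowest. Zbp1, a sensor of Z-form nucleic acid, had a log2 fold change of 4.25, Ifitm3 2.32, Parp9 1.90 and Ifi203 3.02. The smallest of the called changes was that of the RNA-editing gene Adar (0.21), which lost its call without ULA replicate 3 (0.18, adjusted p = 0.077) or adherent replicate 1 (0.20, adjusted p = 0.0502).

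**Figure D2:**
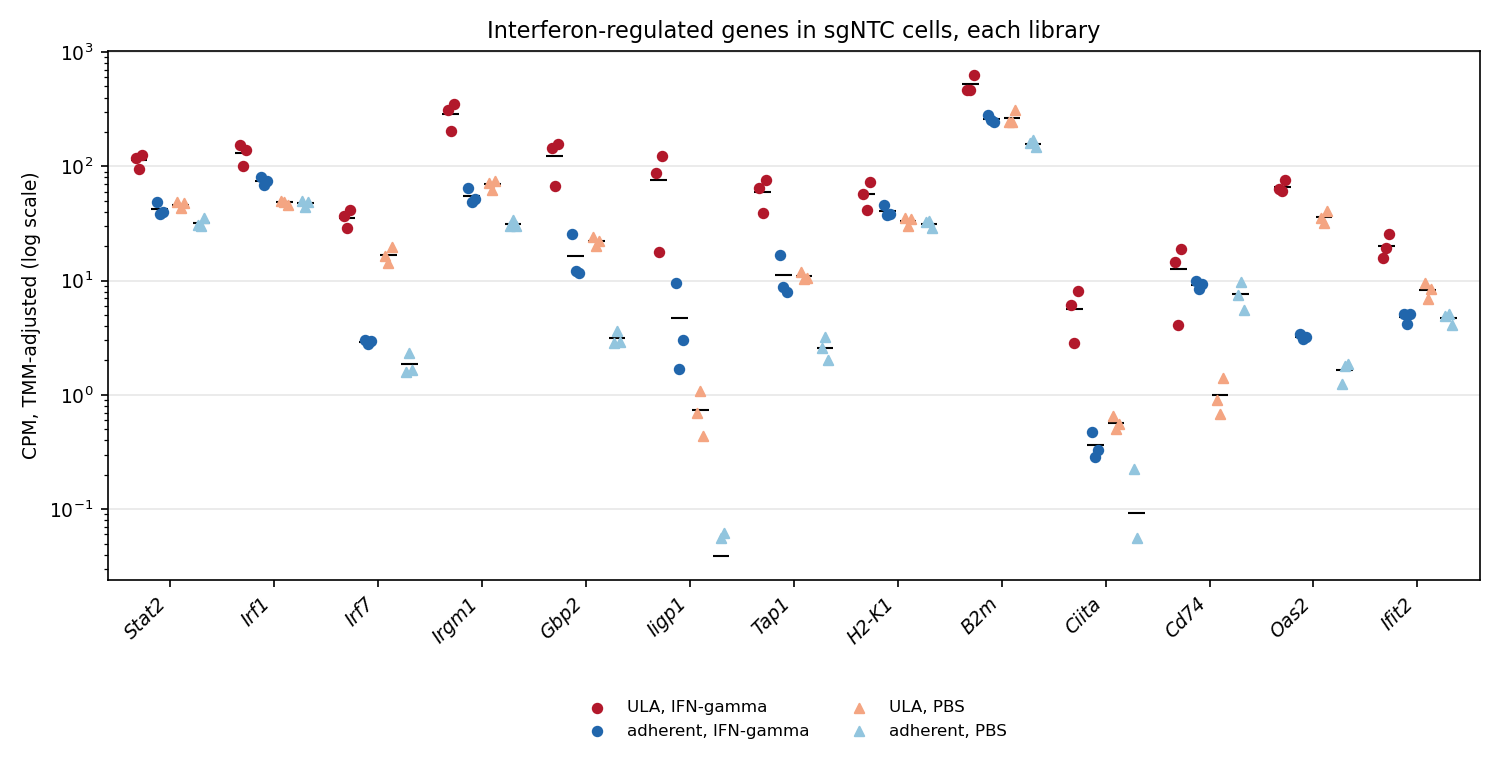
TMM-adjusted CPM on a log axis (y) of 13 interferon-regulated genes (x) in every sgNTC library, with points for libraries and black bars for group means (n = 3 each); libraries at 0 cannot be drawn, which applies to 1 adherent PBS library each for Iigp1 and Ciita. For Irgm1 the ULA libraries with IFN-gamma lie at 203 to 348 CPM and the adherent ones at 48.6 to 65.0 CPM, and for Cd74 the lowest point with IFN-gamma is ULA replicate 2 at 4.10 CPM.

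ULA replicate 2 stood apart from the other ULA libraries in interferon-regulated genes. It was the lowest of the 3 in 76 of the 102 members of the 5 lists, including all 17 GTPases, 15 of 18 class I genes and all 4 class II genes, while it was the lowest in 5209 of all 14622 genes. Its ratio to the mean of the other ULA libraries had a median of 0.81 over the 102 members, 0.50 over the GTPases and 0.323 over the class II genes, against 0.993 over all genes. Without it the GTPase median was 3.75, the class I median 0.87 and the antiviral median 2.04, with 17 of 17, 16 of 18 and 45 of 45 members higher. Leaving out ULA replicate 3 instead gave medians of 3.03, 0.61 and 1.88 for these lists. Then 16 of 17, 12 of 18 and 43 of 45 members were higher.

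Other immune genes moved in both directions. Among checkpoint ligands and regulators 7 of 11 tested members rose and 1 fell. Cd274, which encodes the T cell inhibitor PD-L1, had 34.4, 17.0 and 35.4 CPM in ULA cells against 10.5, 9.49 and 7.28 CPM in adherent cells (1.67 ± 0.28, adjusted p = 2.9e-05), with no overlap and replicate 2 again the lowest ULA library. Ceacam1, an adhesion receptor that restrains T and NK cells, had 54.1, 56.9 and 55.3 CPM in ULA cells against 4.25, 5.67 and 3.13 CPM in adherent cells (3.67 ± 0.14, adjusted p = 6.77e-17). Icosl (5.75), from near 0 in adherent cells, and Lgals9 (1.54) rose, and Pvr, a ligand of NK cell receptors, fell (-0.56). Among chemokines and cytokines 11 of 15 rose and 2 fell. Cxcl12 (1.42), Il15 (1.77) and Csf1 (0.84) rose, while Ccl20, the ligand of CCR6, had 0.173, 0.461 and 0.193 CPM in ULA cells against 6.03, 6.24 and 6.11 CPM in adherent cells (-4.47 ± 0.30, adjusted p = 3.71e-15). Cxcl10, a textbook IFN-gamma target, reached only 2.72, 4.48 and 3.11 CPM in ULA cells and 1.07, 1.08 and 1.11 CPM in adherent cells (1.66 ± 0.30, adjusted p = 1.26e-05), and Cxcl9, with 0, 0 and 4 counts in ULA and 14, 0 and 0 counts in adherent libraries, was not tested.

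NF-kB subunits and targets split into 5 higher and 6 lower of 15. Ptgs2, the inducible cyclooxygenase, had 428, 330 and 415 CPM in ULA cells against 1746, 1624 and 1816 CPM in adherent cells (-2.14 ± 0.13, adjusted p = 2.92e-11), and Tnfaip2 fell by 2.48. Bcl3 (1.41) and the inhibitor gene Nfkbia (0.99) rose. In the complement and acute-phase list 10 of 13 rose and 1, Lcn2, fell (-2.20). C3, the central complement component, had 336, 269 and 286 CPM in ULA cells against 41.8, 30.5 and 31.2 CPM in adherent cells (3.10 ± 0.11, adjusted p = 1.59e-16). Cd55, which protects cells from complement, had 1332, 1408 and 1363 CPM in ULA cells against 362, 410 and 378 CPM in adherent cells (1.83 ± 0.06, adjusted p = 4.82e-23). Both an activating and a protecting gene of complement were thus higher in each ULA library. The copper carrier gene Cp rose by 1.83.

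The effect of detachment was largely shared by cells that received PBS. In sgNTC cells with PBS 4747 genes rose (32.5%) and 4699 fell (32.1%) upon detachment. Of the genes that rose with IFN-gamma, 4154 also rose with PBS, 87.03% of the IFN-gamma set and 87.51% of the PBS set; of those that fell, 4264 were shared, 91.23% and 90.74%. These comparisons have no library in common. Over the 5 interferon lists 93 of 102 members rose with IFN-gamma (median 1.82), and 82 rose and 4 fell with PBS (median 1.49). The GTPases rose in 17 of 17 tested members with IFN-gamma (median 3.35) and in 13 of 17 with PBS (median 2.60).

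The difference between these effects was larger with IFN-gamma for 7 genes (0.0479% of those tested) and smaller for 0 (0%) by edgeR's quasi-likelihood test. Of the 14622 genes tested, 781 had an unadjusted edgeR p under 0.05, close to the share of 0.05 that arises with no difference at all. DESeq2 called 9 larger and 0 smaller. All 7 belong to the interferon lists. Irf1 had 152, 102 and 139 CPM in ULA and 80.9, 68.8 and 73.9 CPM in adherent cells with IFN-gamma, against 49.95, 49.2 and 46.1 CPM in ULA and 50.2, 44.3 and 48.3 CPM in adherent cells with PBS. Irf1 was higher in ULA cells with IFN-gamma, while with PBS the cultures overlapped (difference of effects 0.79 ± 0.13, adjusted p = 0.00753). Cd74 had 14.6, 4.10 and 18.9 CPM in ULA and 9.94, 8.44 and 9.32 CPM in adherent cells with IFN-gamma, against 0.907, 0.682 and 1.40 CPM in ULA and 7.53, 9.80 and 5.49 CPM in adherent cells with PBS. Its difference of effects was 3.39 ± 0.56 (adjusted p = 0.0249), and with PBS it fell upon detachment by 2.95 on the log2 scale. Others were Ifit2 (1.26), Irgm1 (1.23), Stat2 (0.89) and Samhd1 (0.52). Samhd1, which depletes nucleotides, was named as a member of the antiviral list. The count moved with single libraries: it was 4 without adherent IFN-gamma replicate 2, 3 without adherent IFN-gamma replicate 3 or ULA IFN-gamma replicate 1, 2 without adherent PBS replicate 1, 4 without adherent PBS replicate 2 or 3 or ULA PBS replicate 1, 3 without ULA PBS replicate 2 and 1 without ULA PBS replicate 3. Without ULA IFN-gamma replicate 3 it was 5, of which 4 were larger and 1 smaller, and without ULA IFN-gamma replicate 2 it was 6.

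Detachment of Ifngr1-KO cells with IFN-gamma also raised interferon-regulated genes. There 4287 genes rose (29.3%) and 4513 fell (30.9%). Of the genes that rose in sgNTC cells, 3178 rose in Ifngr1-KO cells (66.58% of the sgNTC set and 74.13% of the Ifngr1-KO set) and 171 fell; of those that fell, 3432 were shared (73.43% and 76.05%) and 261 rose. No library is common to these comparisons. Over the 5 interferon lists 93 members rose in sgNTC cells and 74 in Ifngr1-KO cells, with medians of 1.82 and 1.24. The GTPase medians were 3.35 in sgNTC and 2.98 in Ifngr1-KO cells.

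The effect of detachment was larger in sgNTC than in Ifngr1-KO cells for 1945 genes (13.3%) and smaller, or more negative, for 2776 (19.0%), a split of 2858 and 1759 when libraries were scaled by their totals alone. Among the 102 interferon members it was larger for 30 and smaller for 11. For Cd74 the difference was 3.46 ± 0.64 (adjusted p = 0.000314), with 0.477, 0.210 and 0.436 CPM in ULA and 3.55, 2.65 and 3.16 CPM in adherent Ifngr1-KO cells. C4b had 17.3, 11.9 and 15.9 CPM in ULA and 0.842, 0.456 and 0.361 CPM in adherent sgNTC cells, against 0.668, 0.682 and 0.536 CPM in ULA and 0.244, 0.0751 and 0.196 CPM in adherent Ifngr1-KO cells (2.86 ± 0.54, adjusted p = 7.63e-05). For both genes the ULA libraries of sgNTC cells were above every Ifngr1-KO library. Other large positive differences were those of Nlrc5 (4.88), which had no count in ULA Ifngr1-KO libraries so that the fitted value depends on the prior count (adjusted p = 0.0448, and 0.00829 to 0.201 over the alternatives), Zbp1 (3.13; adjusted p = 0.0282, and 0.00128 to 0.226 over the alternatives), Fam221a (2.85) and Mtss1l (2.70).

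The ER export gene Derl3 had 0.173, 0.743 and 0.482 CPM in ULA and 34.2, 28.8 and 32.7 CPM in adherent sgNTC cells, against 0.119, 0.393 and 0 CPM in ULA and 0.451, 0.282 and 0.318 CPM in adherent Ifngr1-KO cells (-4.92 ± 0.87, adjusted p = 0.000107). Slc7a11, the cystine importer, had 21.3, 18.5 and 24.5 CPM in ULA and 353, 353 and 401 CPM in adherent sgNTC cells, against 79.3, 143 and 85.0 CPM in ULA and 277, 244 and 253 CPM in adherent Ifngr1-KO cells (-2.77 ± 0.25, adjusted p = 1.55e-07). Slc7a11 was lower upon detachment in both lines, and more so in sgNTC cells. Derl3 was hardly counted in either culture of Ifngr1-KO cells, so a fall as deep as in sgNTC cells could not show there. Its change in Ifngr1-KO cells did not pass (-1.17, edgeR adjusted p = 0.0974). Cxcl13 (-3.58) and Angpt2 (-2.92) were higher in ULA than in adherent Ifngr1-KO libraries, while in sgNTC cells both overlapped between the cultures. The insulin-like growth factor gene Igf1 (-2.62) had 0.916, 0.973 and 1.08 CPM in ULA and 6.62, 8.04 and 5.29 CPM in adherent sgNTC cells, against 3.29, 3.72 and 4.36 CPM in ULA and 3.74, 4.37 and 4.33 CPM in adherent Ifngr1-KO cells, and Ccl20 (-2.51) completes the set.

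**Figure D3:**
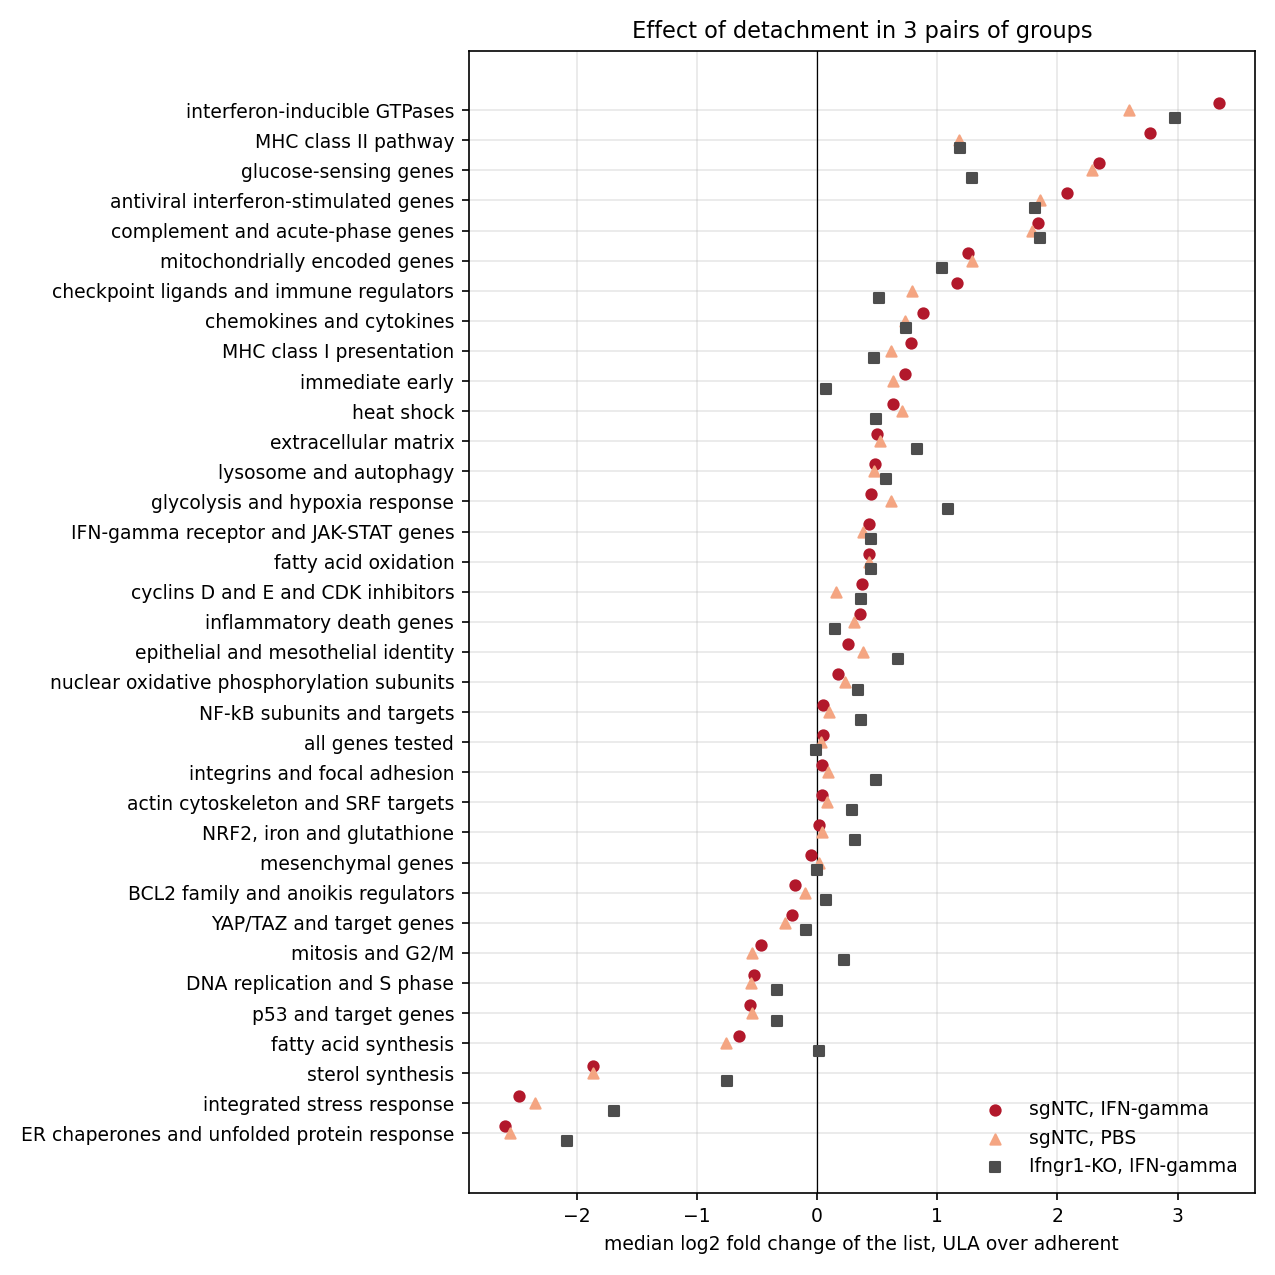
Median log2 fold change of ULA over adherent cells (x axis) for each gene list (y axis) in sgNTC cells with IFN-gamma (red circles), sgNTC cells with PBS (orange triangles) and Ifngr1-KO cells with IFN-gamma (grey squares), from n = 3 libraries per group. The GTPase medians are 3.35, 2.60 and 2.98 in that order, and the sterol synthesis medians -1.87, -1.86 and -0.75.

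Stress programmes of the ER and of amino acid supply were low in detached cells. The unfolded protein response, run by IRE1, PERK and ATF6, raises ER chaperones, and the integrated stress response acts through translation of ATF4, which raises genes for amino acid synthesis and import. All 20 tested ER chaperone and unfolded protein response genes fell, with a median of -2.60. Hspa5, which encodes the chaperone BiP, had 810, 752 and 756 CPM in ULA cells against 9108, 10310 and 9980 CPM in adherent cells (-3.66 ± 0.06, adjusted p = 4.29e-33). Creld2, an ER stress-induced protein, had 29.96, 27.1 and 27.0 CPM in ULA cells against 688, 716 and 710 CPM in adherent cells (-4.65 ± 0.07, adjusted p = 4.29e-33). Hsp90b1, the ER chaperone GRP94, had 894, 866 and 933 CPM in ULA cells against 6211, 6169 and 6909 CPM in adherent cells (-2.84 ± 0.05, adjusted p = 6.09e-31). Each adherent library exceeded each ULA library several-fold, and the replicates of a culture lay close together. Pdia4, a disulfide isomerase, fell by 3.54 and Herpud1 by 4.13. The sensors moved less, by -0.99 for Atf6 and -1.20 for Ern1, the gene of IRE1, and the effector gene Xbp1 by -1.06.

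The integrated stress response list fell in 28 of 29 tested members with a median of -2.48, and Slc7a3 did not pass (0.48). Atf4 had 164, 153 and 169 CPM in ULA cells against 867, 977 and 870 CPM in adherent cells (-2.48 ± 0.06, adjusted p = 2.91e-27). Ddit3, which encodes the death-promoting factor CHOP, had 26.7, 23.7 and 24.3 CPM in ULA cells against 408, 387 and 393 CPM in adherent cells (-3.99 ± 0.09, adjusted p = 7.8e-26). Asns, asparagine synthetase, had 59.0, 62.6 and 67.0 CPM in ULA cells against 492, 534 and 555 CPM in adherent cells (-3.07 ± 0.06, adjusted p = 1.99e-29). The cultures were again fully separated. The synthesis genes Aldh18a1 for proline (-3.27), Shmt2 (-3.29) and Mthfd2 (-3.92) for mitochondrial one-carbon units, and Phgdh (-2.26), Psat1 (-2.09) and Psph (-2.86) for serine all fell. So did the carriers Slc7a1 for cationic amino acids (-3.12) and Slc7a5 (-1.56), and Trib3 (-3.94), a pseudokinase that feeds back on ATF4.

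Promoters of these falling genes were searched for the elements of the ER and ATF4 pathways. CCAAT, any 9 bases, CCACG, the ER stress response element, stood at 7 of 17 ER chaperone and unfolded protein response genes with a RefSeq promoter (41.2%), namely Calr, Canx, Creld2, Dnajc3, Hsp90b1, Hspa5 and Pdia6, and at 0 of 26 genes of the integrated stress response list, against 0.137% of all genes with a promoter. TGATG, any base, AA, a core of the element bound by C/EBP-ATF dimers, stood at 8 of 26 genes of the integrated stress response list (30.8%), among them Asns, Chac1, Slc7a11 and Trib3, and at 1 of 17 of the ER list (5.88%, Herpud1), against 4.51% of all genes. Both strands were read. The promoters of Hspa5 (chr2:34771840-34772139, plus strand) and Creld2 (chr15:88819396-88819695, plus strand), as genes with the smallest adjusted p of the ER list, and those of Asns (chr6:7693160-7693459, minus strand) and Chac1 (chr2:119350992-119351291, plus strand), from the integrated stress response list, are printed from GRCm38.p6 with the match in capitals.
Hspa5: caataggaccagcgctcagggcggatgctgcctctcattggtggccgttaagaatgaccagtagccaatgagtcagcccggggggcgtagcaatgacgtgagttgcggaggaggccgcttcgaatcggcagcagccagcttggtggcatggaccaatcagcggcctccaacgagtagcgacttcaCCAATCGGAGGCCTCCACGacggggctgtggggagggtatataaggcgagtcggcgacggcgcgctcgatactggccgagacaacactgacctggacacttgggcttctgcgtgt
Creld2: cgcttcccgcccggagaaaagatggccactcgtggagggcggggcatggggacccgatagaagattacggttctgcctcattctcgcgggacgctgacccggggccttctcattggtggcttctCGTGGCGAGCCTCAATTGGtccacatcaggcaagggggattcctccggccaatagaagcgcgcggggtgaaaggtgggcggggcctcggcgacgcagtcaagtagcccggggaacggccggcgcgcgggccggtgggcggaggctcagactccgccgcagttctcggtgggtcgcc
Asns: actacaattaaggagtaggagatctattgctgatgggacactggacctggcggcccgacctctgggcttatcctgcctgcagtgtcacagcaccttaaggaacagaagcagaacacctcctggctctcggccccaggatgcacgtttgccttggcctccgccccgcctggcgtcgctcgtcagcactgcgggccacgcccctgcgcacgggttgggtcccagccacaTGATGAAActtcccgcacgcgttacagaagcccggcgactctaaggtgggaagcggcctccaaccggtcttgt
Chac1: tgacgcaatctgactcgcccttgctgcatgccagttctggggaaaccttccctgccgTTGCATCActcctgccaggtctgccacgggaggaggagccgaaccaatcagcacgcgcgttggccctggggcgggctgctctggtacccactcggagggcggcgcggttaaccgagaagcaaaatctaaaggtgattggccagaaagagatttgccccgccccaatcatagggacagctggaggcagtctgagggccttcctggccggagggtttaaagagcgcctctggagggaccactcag

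**Figure D4:**
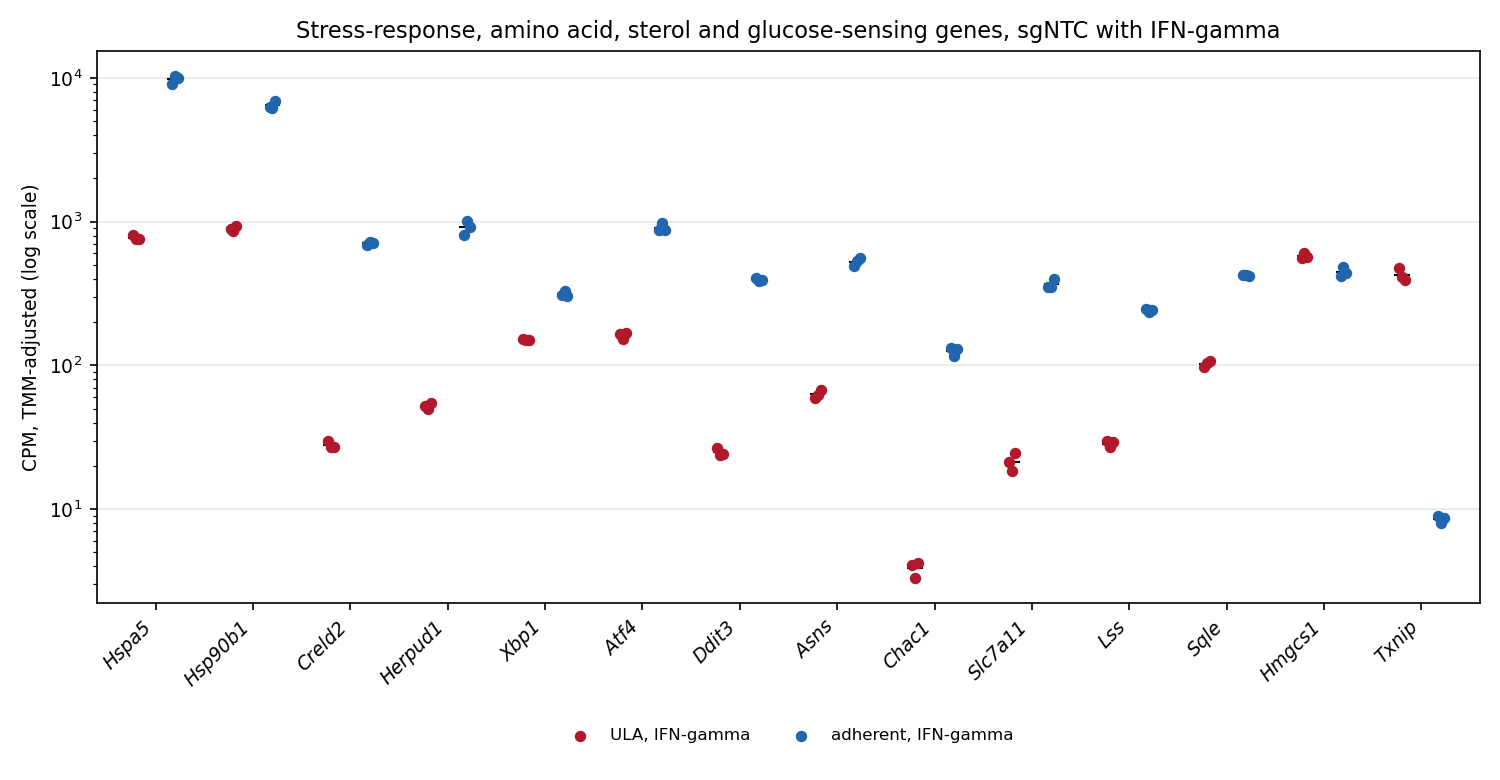
TMM-adjusted CPM on a log axis (y) of ER, amino acid stress, sterol and glucose-sensing genes (x) in sgNTC cells with IFN-gamma, with red points for the 3 ULA libraries, blue points for the 3 adherent libraries and black bars for means. Hspa5 lies at 752 to 810 CPM in ULA and 9108 to 10310 CPM in adherent libraries, whereas Hmgcs1 and Txnip are higher in ULA libraries.

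Sterol synthesis genes, which SREBP2 raises when membrane cholesterol is low, fell in 22 of 24 tested members with a median of -1.87. Lss, which closes the sterol ring, had 29.8, 26.9 and 29.2 CPM in ULA cells against 246, 235 and 244 CPM in adherent cells (-3.08 ± 0.08, adjusted p = 1.62e-26). Sqle, squalene epoxidase, had 97.3, 104 and 107 CPM in ULA cells against 422, 427 and 421 CPM in adherent cells (-2.04 ± 0.05, adjusted p = 1.95e-27). The member that rose was Hmgcs1, which makes HMG-CoA, with 561, 605 and 564 CPM in ULA cells against 420, 485 and 438 CPM in adherent cells (0.36 ± 0.07, adjusted p = 2.4e-05). Its 3 ULA libraries lay above the adherent ones, and it was singled out after its values were seen. TCACC, any base, CAC, a core of the sterol response element, stood at 2 of 16 genes of the list with a promoter (12.5%), Hmgcs1 and Hsd17b7, against 1.51% of all genes. For 22 of the 24 genes the effect of detachment was more negative in sgNTC than in Ifngr1-KO cells, against 19.0% of all genes.

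Fatty acid synthesis genes fell in 9 of 11 tested members and rose in 2. Fasn, fatty acid synthase, had 278, 285 and 263 CPM in ULA cells against 616, 595 and 610 CPM in adherent cells (-1.14 ± 0.06, adjusted p = 2.29e-18). The desaturase genes Scd1 (-0.96) and Scd2 (-0.99) fell, and Acss2, which makes acetyl-CoA from acetate, rose (1.65), as did Me1 (0.84), a source of NADPH. Fatty acid oxidation genes rose in 14 of 18 and fell in 1. Cpt1a, which admits fatty acids to mitochondria, had 244, 238 and 224 CPM in ULA cells against 98.8, 88.8 and 96.2 CPM in adherent cells (1.31 ± 0.06, adjusted p = 1.03e-20). Cpt2 (1.15) and Acadm (1.09) rose, and Acot2 fell (-1.53). Breakdown and synthesis genes of fatty acids thus moved in opposite directions in most members.

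The glucose-sensing list rose in 5 of 6 members with a median of 2.35. Txnip, which restrains glucose uptake and is a target of the glucose-responsive factors MondoA and ChREBP, had 474, 412 and 393 CPM in ULA cells against 8.89, 7.98 and 8.69 CPM in adherent cells (5.64 ± 0.21, adjusted p = 6.55e-14). Mlxipl, the gene of ChREBP, had 30.3, 32.9 and 27.3 CPM in ULA cells against 3.37, 3.54 and 4.03 CPM in adherent cells (3.05 ± 0.13, adjusted p = 7.2e-21). Neither gene overlapped between cultures. Arrdc3 (3.02) and Arrdc4 (1.67) rose, and Mlxip, the gene of MondoA, did not pass (-0.04). For 5 of the 6 the effect of detachment was larger in sgNTC than in Ifngr1-KO cells, against 13.3% of all genes. The glycolysis and hypoxia list rose in 15 of 30 and fell in 5. Hk1, a hexokinase, had 645, 531 and 714 CPM in ULA cells against 238, 234 and 226 CPM in adherent cells (1.44 ± 0.10, adjusted p = 1.55e-11), while Hk2 fell (-0.28). Egln3, an oxygen-sensing hydroxylase, rose by 1.85 and Vegfa fell (-0.57). In this list the effect was smaller in sgNTC than in Ifngr1-KO cells for 22 of 30 members, against 19.0% of all genes, with medians of 0.45 in sgNTC and 1.09 in Ifngr1-KO cells.

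All 13 tested mitochondrially encoded genes rose, with a median of 1.25, which is the measure behind the share of counts given above. mt-Nd5, a subunit of complex I, had 4897, 5538 and 5217 CPM in ULA cells against 1694, 1906 and 1929 CPM in adherent cells (log2 fold change 1.5 ± 0.09, adjusted p = 1.65e-13). Nuclear genes of oxidative phosphorylation moved less, with 15 of 26 higher, none lower and a median of 0.17. Sdhc (0.71), Sdhd (0.60) and Sdha (0.58), subunits of succinate dehydrogenase, and Cox6c (0.74) had the smallest adjusted p. Lysosome and autophagy genes rose in 19 of 26 members and fell in 5. Ctsh, a cathepsin, rose by 2.84, Ctsa by 1.09 and Psap, which supplies the saposins, by 1.03. Sqstm1, the autophagy receptor p62, had 683, 656 and 684 CPM in ULA cells against 2002, 2018 and 2024 CPM in adherent cells (-1.58 ± 0.05, adjusted p = 4.63e-24), and the cholesterol exporter Npc1 fell by 1.59.

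Proliferation genes were lower in detached cells. Of 26 mitosis and G2/M genes 20 fell and 2 rose, with a median of -0.46, and of 24 replication genes 17 fell and 2 rose, with a median of -0.52. Top2a, which untangles DNA, had 289, 299 and 326 CPM in ULA cells against 484, 579 and 542 CPM in adherent cells (-0.81 ± 0.06, adjusted p = 4.58e-14). Mcm2, a subunit of the replicative helicase, had 84.7, 87.4 and 81.1 CPM in ULA cells against 189, 190 and 184 CPM in adherent cells (-1.15 ± 0.05, adjusted p = 3.73e-20). The falls were modest but the cultures did not overlap in either gene. Anln (-1.39) and Ect2 (-1.33), which act in cytokinesis, and the licensing genes Cdc6 (-1.65) and Cdt1 (-1.52) fell more. Kif20a (0.37) and Cenpf (0.23), and Tk1 (0.44) and Mcm6 (0.18), were the members that rose. For mitosis genes the effect was more negative in sgNTC than in Ifngr1-KO cells in 25 of 26, against 19.0% of all genes, with medians of -0.46 in sgNTC and 0.22 in Ifngr1-KO cells. Myc had 59.5, 50.2 and 61.0 CPM in ULA cells against 249, 255 and 251 CPM in adherent cells (-2.14 ± 0.10, adjusted p = 1.29e-15). Ccnd1, the cyclin that couples adhesion to G1 progress, had 49.8, 50.8 and 55.1 CPM in ULA cells against 178, 164 and 176 CPM in adherent cells (-1.73 ± 0.06, adjusted p = 6.62e-24). Ccnd3 (0.81) and the inhibitor gene Cdkn2c (0.51) rose.

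Genes of matrix, adhesion and mechanical signalling did not move as a block. The matrix list had 17 of 31 members higher and 4 lower, the integrin and focal adhesion list 8 of 24 higher and 6 lower, and the YAP/TAZ list 8 of 22 higher and 12 lower. Itgb3, the vitronectin receptor chain, had 247, 224 and 224 CPM in ULA cells against 49.9, 52.8 and 46.7 CPM in adherent cells (2.22 ± 0.08, adjusted p = 1.42e-21). Itga6 (1.31) and Itgav (1.00) rose, Itgb1 did not pass (0.01), and Lims1, an adaptor of integrin-linked kinase, fell by 1.66. Thbs1, thrombospondin 1, had 86.4, 75.6 and 91.0 CPM in ULA cells against 13.5, 12.3 and 11.3 CPM in adherent cells (2.77 ± 0.08, adjusted p = 4.12e-25). Timp2 rose (1.16), while the matrix genes Bgn (-1.30) and Sparc (-0.87) fell. Ankrd1, a target of YAP, had 31.6, 30.3 and 32.0 CPM in ULA cells against 260, 249 and 248 CPM in adherent cells (-3.01 ± 0.05, adjusted p = 8.72e-32). The YAP targets Amotl1 (-1.81) and Ajuba (-1.82) and the partner gene Tead4 (-1.93) fell, Ccn2 fell less (-0.64), and Ccn1 did not pass (-0.04). Actin and SRF genes had 8 of 22 members higher and 6 lower, with Filip1l (1.04) and Cnn3 (0.51) up and Flna (-0.43) and Cald1 (-0.41) down. Scaled by library totals alone, 12 actin and SRF genes were higher and 4 lower. The integrin and focal adhesion list then had 13 higher and 4 lower.

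Identity genes moved in both directions. Of 17 epithelial and mesothelial genes 9 rose and 3 fell. Wt1, a mesothelial transcription factor, had 382, 398 and 359 CPM in ULA cells against 175, 208 and 185 CPM in adherent cells (1.00 ± 0.06, adjusted p = 2.25e-17). Msln, mesothelin, had 309, 292 and 285 CPM in ULA cells against 654, 591 and 626 CPM in adherent cells (-1.08 ± 0.05, adjusted p = 1.38e-20). The cultures were separated for both, in opposite directions. Upk1b (-1.36) and Upk3b (-1.71) fell with Msln, and Krt8 (0.98) rose with Wt1. Of 9 mesenchymal genes 1 rose, Cd44 (0.38), and 2 fell, Zeb1 (-0.31) and Snai2, which encodes Slug and had 34.4, 35.6 and 38.5 CPM in ULA cells against 148, 165 and 159 CPM in adherent cells (-2.12 ± 0.10, adjusted p = 5.45e-15).

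In the BCL2 family and anoikis list 6 of 13 members rose and 7 fell. Bmf, a BH3-only protein released from the cytoskeleton on detachment, had 127, 129 and 110 CPM in ULA cells against 15.6, 13.6 and 15.9 CPM in adherent cells (3.02 ± 0.09, adjusted p = 9.02e-24). Bcl2l11, which encodes BIM, the other BH3-only protein tied to anoikis, had 119, 119 and 114 CPM in ULA cells against 32.1, 32.8 and 33.6 CPM in adherent cells (1.84 ± 0.07, adjusted p = 2.04e-21). Bcl2, the survival gene, had 17.5, 19.0 and 22.7 CPM in ULA cells against 64.4, 68.1 and 69.2 CPM in adherent cells (-1.77 ± 0.08, adjusted p = 4.18e-20). None of the 3 overlapped between the cultures. Bcl2l1 fell (-0.75) and Mcl1 rose (0.26) among survival genes, and the p53 targets Bbc3 (-1.46) and Bax both fell among killers. In the inflammatory death list 7 of 14 rose and 3 fell. Casp4, the sensor of intracellular lipopolysaccharide, fell by 1.78 and Cflar, a brake on caspase-8, by 0.80, whereas Casp12 (1.85) and Tnfrsf1a (0.51) rose. Tnfsf10, which encodes TRAIL, had 37, 24 and 43 counts in ULA libraries and none in adherent libraries, at least 32.2-fold higher against the same floor. Of 15 p53-linked genes, in cells that carry the p53-/- genotype, 10 fell and 1, Sesn1, rose (1.55). Trp53 itself was counted at 17.9, 18.9 and 16.8 CPM in ULA cells and 37.0, 33.0 and 34.0 CPM in adherent cells.

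Immediate early genes rose in 10 of 19 members and fell in 3. Fos had 400, 291 and 258 CPM in ULA cells against 68.2, 55.9 and 56.5 CPM in adherent cells (2.39 ± 0.19, adjusted p = 2.81e-09), whereas its relative Fosl1 had 4.13, 4.05 and 5.06 CPM in ULA cells against 38.2, 37.9 and 37.6 CPM in adherent cells (-3.10 ± 0.13, adjusted p = 4.69e-21). Both AP-1 members were separated by culture, in opposite directions. Zfp36 (1.36) and Btg2 (0.93) rose and Klf4 fell (-1.39). Heat shock genes rose in 7 of 14 and fell in 5, with the cytosolic co-chaperone Dnaja1 higher (0.78) and the mitochondrial chaperone Hspd1 (-1.46), Hsf1 (-0.84) and Hsp90ab1 (-0.49) lower. In the NRF2, iron and glutathione list 6 of 22 rose and 8 fell. This balance depended on scaling, with 8 higher and 5 lower by DESeq2 and 11 and 4 by library totals alone. Nqo1, a quinone reductase, rose by 1.99 and Gss, glutathione synthetase, by 1.38, while Txnrd1, thioredoxin reductase, fell by 1.37 and the ferritin gene Ftl1 by 0.75.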

How the data were processed

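Gene-level counts of poly-A RNA libraries were deposited by the authors as raw counts from featureCounts 2.1.1, per the file headers, run with the paired-end option but without counting pairs, so both mates of a fragment add to a count, without strand and without multi-mapped reads. Trimmomatic, HISAT2 and SAMtools are named by the submitters' processing notes, with the GRCm38/mm10 build. Reads of a gene and an overlapping or antisense neighbour, and of near-identical paralogs, cannot be told apart.

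The counts were fitted with edgeR 4.0.16 (R 4.3.3, limma 3.58.1): genes kept by filterByExpr with a minimum count of 10 (14622 genes; at least 99.971% of the counts of each library), TMM factors of 0.9579 to 1.0537, 1 mean for each of the 8 groups over all 24 libraries and robust quasi-likelihood tests, with Benjamini-Hochberg adjustment over all genes and a threshold of 0.05. Differences of effects were contrasts of the same fit. Each SE was derived from the test, as the absolute log2 value over the square root of its F statistic. The fit left 16 residual degrees of freedom. The same procedure was also run on counts simulated with means and dispersions taken from these data. The alternatives were DESeq2 1.42.0, other scaling, no filter, halved counts, the replicate number as a block, a fit of the compared groups only, and leaving out each library.

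Genes were named as the 10 largest changes each way with at least 5 CPM in 1 group, no overlap between groups and no predicted gene model, the 4 smallest adjusted p among the called members of each list, members of the interferon lists, the 6 largest each way in each difference of effects, and Ifngr1, Trp53 and Cas9. Other members were named for their role after their values were seen. The comparison, its members and its lists were chosen with earlier results of these data known. Of the 34 lists, 641 member entries were tested. Results that need certain genes are not reported here. The promoter elements of the ER, ATF4 and sterol pathways were added after those of the interferon pathway.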

Additional observations from a re-analysis of the deposited data

Results flagged for a closer look

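The effect of detachment differed between IFN-gamma and PBS in sgNTC cells for 7 genes, by a test of the difference itself. As log2 differences, the largest of those reported here were 3.39 for Cd74, 1.26 for Ifit2, 1.23 for Irgm1, 0.89 for Stat2 and 0.79 for Irf1. The smaller difference of Samhd1, given above, was not followed over the alternatives. Over the alternatives, edgeR's or DESeq2's adjusted p ran from 5.15e-32 to 0.564 for Cd74, from 0.000259 to 0.223 for Ifit2 and from 1.24e-31 to 0.609 for Irgm1. It ran from 1.78e-10 to 0.277 for Stat2 and from 1.05e-10 to 0.498 for Irf1. The value of the difference stayed within 2.97 to 3.80 for Cd74.

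The effect of detachment with IFN-gamma differed between sgNTC and Ifngr1-KO cells for 4721 genes, by the same kind of test. The differences were 4.88 for Nlrc5, 3.46 for Cd74, 3.13 for Zbp1, 2.86 for C4b, 2.85 for Fam221a and 2.70 for Mtss1l on the log2 scale. For Mtss1l the cultures overlapped in sgNTC cells, and Ifngr1-KO cells had 1.29, 1.18 and 1.29 CPM in ULA and 6.91, 7.06 and 8.05 CPM in adherent culture. In the other direction the differences were -4.92 for Derl3, -3.58 for Cxcl13, -2.92 for Angpt2, -2.77 for Slc7a11, -2.62 for Igf1 and -2.51 for Ccl20. Derl3 had 0.451, 0.282 and 0.318 CPM in adherent Ifngr1-KO cells, too low for a fall of that size to show. Each genotype is 1 line, so the edit and other differences between the lines cannot be told apart.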

How the results depend on the processing

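The counts of genes that rose or fell, of changes over 2-fold and of differences between lines, both directions together, stayed within 1.5 times the reported counts under each alternative. The direction of the differences between lines depended on scaling. They split into 1945 larger and 2776 smaller in sgNTC cells as reported, and into 2858 and 1759 by library totals alone. Leaving out 1 library gave 4415 to 4720 genes higher, 4279 to 4512 lower, 1979 to 2102 higher and 1084 to 1164 lower by over 2-fold, and 4235 to 4720 differing between lines. DESeq2 called 4978 higher, 4463 lower and 4972 differing between lines. The 7 genes whose effect differed from that with PBS became 63 with no filter on low counts (25 larger and 38 smaller), 1 when the fit held just the groups compared, 9 with DESeq2 and 1 to 7 with a library left out; the cause was not tested. The difference in mitochondrial share ran from 2.87 to 3.20 percentage points with a library left out. With the replicate block there were 4760 genes higher, 4678 lower, 2074 higher by over 2-fold, 5 differing from PBS and 4713 differing between lines. Replicates with the same number did not deviate together between cultures (correlations 0, 0.0109 and -0.0058), so the numbers were not taken to pair the samples. Among genes named by rule and members of the interferon lists, none changed direction under an alternative where either fit called the gene. Changes of sign between values that passed in neither fit were not counted. H2-K1 lost its call when the fit held just the groups compared (adjusted p = 0.129) and Gvin1 with the block (adjusted p = 0.061), both by edgeR. Genes left out by the filter on low counts, the class II chains among them, have counts but no test in the report.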
